A study of Mus musculus with 9 samples.

Results

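Aging RGCs + USCs medium were compared with aging RGCs. These were mouse cultures labelled retinal ganglion cells (RGCs) and wild type, and all 6 libraries came from cultures treated with D-galactose, a sugar used to induce aging-like changes in cells. The 3 aging libraries came from D-galactose alone. The 3 medium libraries came from cultures that received D-galactose first and USCs medium afterwards, that is, medium in which stem cells grown from urine (USCs) had been cultured. These were 6 of the 9 RNA-sequencing libraries of the study, and the other 3 were normal RGCs, which received neither treatment and are given below as the untreated level. The question was which genes change when aging cultures receive USCs medium. All 22322 genes with a deposited value were considered, 12145 were expressed highly enough to be tested, and 8839 of these were well expressed, with a mean of at least 10 CPM over the 6 libraries. CPM are counts scaled to a common library size, adjusted by TMM factors. The level was averaged over both groups, so a gene could pass through the group where it was high. Lcn2, Tubb3 and Krt20, at means of 4.33, 2.59 and 3.69 CPM in aging libraries, passed through the medium libraries. Mmp3 and Mmp13, at 1.07 and 3.74 CPM in medium libraries, passed through the aging libraries. Their place among well-expressed genes is thus not independent of their change. Intu was just inside this limit at 10 CPM and Zfp760 just outside at 9.997 CPM. Well-expressed genes held 98.6% to 98.9% of the counts of a library.

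According to the methods of the study the RGCs were bought and subcultured in medium with serum. The USCs came from urine of healthy adult women, not from mice, and were grown in a medium of their own. The replicates were wells. P-values therefore measure the spread between wells. None of the 9 libraries came from cultures in the USC growth medium without USCs, so what USCs secreted and what the growth medium contained cannot be told apart.

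The label was checked against genes that define retinal cells, in FPKM, which is scaled by transcript length. Pou4f2, Pou4f3, Atoh7 and Stmn2, which mark ganglion cells or their neurites, were listed at 0 in all 9 libraries. Thy1, Slc17a6, Elavl3, Elavl4, Nefh and Gap43 did not exceed 0.09 FPKM, and Pou4f1 did not exceed 0.31 FPKM. Expressed members of the 18-gene list were Rbpms, between 21.89 and 33.11 FPKM, Nefl, between 4.55 and 20.53 FPKM, Isl1, between 4.62 and 9.36 FPKM, Map2, between 3.05 and 5.36 FPKM, and Tubb3, between 1.23 and 11.37 FPKM. The remaining members, Sncg and Nefm, did not exceed 0.37 FPKM. The keratin gene Krt8 lay between 206.1 and 360.81 FPKM, while the epithelial genes Krt5 and Esrp1 were listed at 0. The intermediate filament gene Vim, a member of the glial and mesenchymal lists, lay between 778.44 and 939.78 FPKM. Among other glial genes Glul lay between 34.76 and 49.49 FPKM and Sox9 between 3.73 and 6.95 FPKM, while Olig2 was listed at 0. The photoreceptor genes Crx and Rcvrn were also listed at 0. Most members of the list were thus at or near 0, and the cultures are called RGCs here only as labelled.

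Cytokines of the interleukin-6 family act through receptors that pair with Il6st, and the JAK kinases on these receptors activate STAT factors, which switch on acute phase proteins and their own inhibitors. Shortage of amino acids, or stress in the endoplasmic reticulum, raises the factor ATF4, which switches on genes for amino acid synthesis, uptake and tRNA charging. Matrix metalloproteinases and the plasminogen system break down the matrix around cells, and several of them belong to the secretions of senescent cells.

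Library totals were 18189616 to 19556335 counts in aging and 20238824 to 21054326 in medium libraries. Aging libraries held 14216 to 14339 genes with a count and medium libraries 13876 to 13972. The most abundant gene was mt-Co1, at 2.33% to 2.40% of counts in aging and 3.01% to 3.10% in medium libraries. Mitochondrial genes together took 9.22% to 9.71% and 9.72% to 9.97%. Across well-expressed genes, log2 CPM correlated at 0.9968 to 0.9975 within a group and at 0.9718 to 0.9761 between an aging and a medium library, a description over genes, which are not independent. Medium replicate 3 had higher macrophage markers than the other medium libraries, with Lyz2 at 9.05 FPKM against 1.68 and 0.72, and C1qb at 0.68 FPKM against 0 in both. Aging libraries had Lyz2 at 4.93, 0.91 and 1.48 FPKM. Without medium replicate 3 the counts of DEGs given next were 48 and 76.

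Most well-expressed genes changed little, and few changed by 2-fold. DEGs were genes with an adjusted p under 0.05 whose levels differed by 2-fold or more. Of the 8839 well-expressed genes, 47 were upregulated DEGs (0.532%) and 72 were downregulated DEGs (0.815%) in the medium. Without a fold-change limit, 2999 genes (33.9%) were higher and 2242 (25.4%) lower at an adjusted p under 0.05 in the quasi-likelihood test of edgeR, adjusted by Benjamini-Hochberg. Over all 12145 tested genes the shares were 1.24% and 4.21% for DEGs and 27.1% and 26.0% without a fold-change limit. Counts of higher and lower genes in the lists below are to be read against the 33.9% and 25.4% of all well-expressed genes. Of the well-expressed genes that passed, 4703 differed by less than 1.5-fold. The 3 medium values did not overlap the 3 aging values for 37.7% of well-expressed genes with the medium higher and for 27.9% with the medium lower (30.4% and 29.3% of all tested genes), and they were apart for each of the 47 and 72 DEGs. The middle of the distribution lay at a log2 fold change of 0.031, with quartiles at -0.15 and 0.20. The direction of small changes depended on the scaling. With library totals alone the median was -0.048, and 2120 genes were higher and 3154 lower, so the share of higher genes among those that passed went from 57.2% to 40.2%. With limma on FPKM that share was 42.3%. List counts given below with library totals alone are to be read against the 2120 higher and 3154 lower of the 8839 genes in that setting. Changes near 0.1 on the log2 scale are thus reported with both scalings where their direction turned.

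The fold-change calls depended on level. Among tested genes under 10 CPM, 103 of 3306 were upregulated DEGs (3.12%) and 439 were downregulated DEGs (13.3%). From 10 to 100 CPM the numbers were 36 and 69 of 6438 genes. At 100 CPM or more, 11 of 2401 genes were upregulated DEGs (0.458%) and 3 were downregulated DEGs (0.125%), so upregulated genes outnumbered downregulated ones only in this range. The 3 abundant downregulated DEGs were Gpnmb, Cpt1a and Slc5a3.

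**Figure D1:**
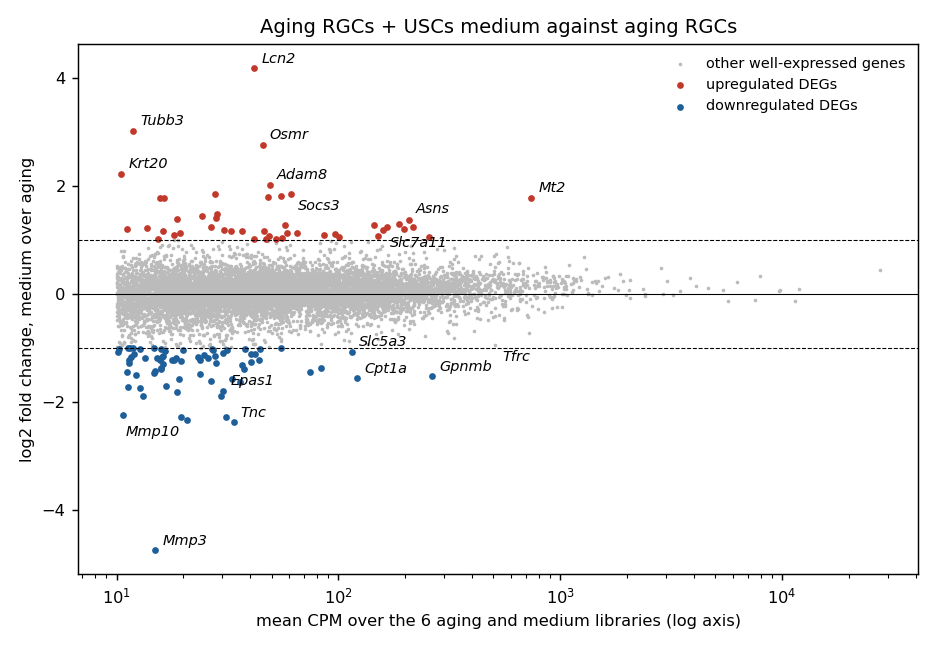
Each point is 1 of the 8839 well-expressed genes. The horizontal axis is its mean CPM over the 6 libraries on a log axis and the vertical axis its log2 fold change, medium over aging. Dashed lines mark 2-fold changes, red points the 47 upregulated and blue points the 72 downregulated DEGs, and Lcn2 and Mmp3 lie farthest from 0 at 4.19 and -4.75.

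Interleukin-6 family receptors moved apart, and most targets of JAK-STAT signalling rose. Osmr, the receptor subunit for oncostatin M, was at 12.0, 10.6 and 12.5 CPM in aging and at 80.1, 77.3 and 80.9 CPM in medium libraries. The 3 medium values lay far above every aging value, and normal RGCs were between them at 24.9 to 30.2 CPM. The log2 fold change of Osmr was 2.77 (standard error, SE, 0.0736, adjusted p = 1.21e-21 by edgeR). Lifr, the receptor for leukemia inhibitory factor, went the other way, from 28.4, 26.9 and 27.1 CPM to 12.7, 10.8 and 11.3 CPM. Its ligand Lif fell as well, from 32.3, 34.8 and 34.7 CPM to 15.5, 16.8 and 13.9 CPM. Il6st, the subunit that these receptors share, rose from 137 ± 2.17 CPM to 173 ± 1.29 CPM (SD, n = 3), a log2 fold change of 0.34. Il6 itself was under the well-expressed limit at 0.573 CPM in aging and 0.526 CPM in medium libraries, with an adjusted p of 0.835 by edgeR.

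Of the 10 kinases and STAT factors on the list, 3 were higher and 3 lower at an adjusted p under 0.05. These were near the shares of all well-expressed genes, 33.9% and 25.4%. Stat3, which carries the signal of this family, rose from 194 ± 4.36 CPM to 269 ± 7.26 CPM, with a log2 fold change of 0.47. Stat2 had a log2 fold change of 0.59, Jak2 of 0.23, Jak1 of -0.15 and Tyk2 of -0.56.

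The 9 well-expressed targets and feedback genes had a median log2 fold change of 1.07, against 0.031 for all well-expressed genes. Of these genes 8 were higher, 5 of them as DEGs, and none was lower, and the ninth, Bcl6, had a log2 fold change of 0.20 with overlapping values. Socs3, which encodes the inhibitor that STAT3 induces against its own receptors, was at 24.7, 27.3 and 27.1 CPM in aging and at 95.8, 95.7 and 95.5 CPM in medium libraries. The medium values of Socs3 differed by less than 1 CPM from each other, and normal RGCs lay at 33.4 to 37.2 CPM. The log2 fold change of Socs3 (chromosome 11, 117966079 to 117970047, minus strand) was 1.86 (SE 0.0559, adjusted p = 1.44e-20 by edgeR). Cebpd, a transcription factor of the acute phase, rose from 10.3 ± 0.602 CPM to 27.0 ± 2.29 CPM, and it overlaps Spidr on the other strand. Socs2, an inhibitor of growth hormone signalling, had a log2 fold change of 1.21, the kinase gene Pim3 of 1.10, the interleukin-4 receptor gene Il4ra of 1.07, and Bcl3 and Junb of 1.00 and 0.83.

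Most acute phase genes rose as well. Lcn2, which encodes an iron-binding protein of the innate immune response, had the largest increase among well-expressed genes (chromosome 2, 32384633 to 32388252, minus strand). It was at 5.03, 4.33 and 3.65 CPM in aging, at 74.6, 81.7 and 80.6 CPM in medium and at 7.80, 7.22 and 7.55 CPM in normal libraries. Of the 7 well-expressed acute phase genes 6 were higher and 1 lower. Cp, the copper carrier ceruloplasmin, rose from 141 ± 7.29 CPM to 236 ± 10.3 CPM, and Timp1, an inhibitor of metalloproteinases, from 66.5 ± 4.37 CPM to 118 ± 5.33 CPM. The complement gene C3 fell slightly, from 50.8 ± 1.33 CPM to 45.4 ± 2.63 CPM (adjusted p = 0.0331 by edgeR), and its adjusted p was over 0.05 with DESeq2 and with limma on FPKM.

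Stretches of RefSeq promoter windows on GRCm38.p6 that match the STAT motif are shown for 4 of the upregulated DEGs, 30 bases each, in the direction of the gene and with the letters TTCNNNGAA in capitals. The Socs3 stretch is chr11:117969501-117969530 and its match begins 154 bases before the RefSeq start. The stretches of Tsc22d3 at chrX:140548759-140548788 and Per1 at chr11:69099932-69099961 belong to glucocorticoid targets described below. That of Zfp36, an mRNA decay factor, is chr7:28379226-28379255 and begins its match 17 bases before the RefSeq start, inside an annotated exon.
Socs3: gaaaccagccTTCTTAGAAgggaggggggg
Tsc22d3: cagtttttacTTCTGTGAAtgagggccagg
Zfp36: acagcctgacTTCTGCGAAccgacagtcgg
Per1: tgtttcccacTTCCACGAAgatggggattg

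Windows of 300 bases, from 250 before to 50 after each start, were found by symbol for 32 of the 47 upregulated and 51 of the 72 downregulated DEGs. A gene was counted if any of its windows held a match on either strand. The STAT letters were in 9 of the 32 upregulated DEGs (28.1%), in 3 of the 51 downregulated DEGs (5.88%), in 7.97% of the 7142 well-expressed genes with a window and in 8.3% of all 32851 windows. Besides the genes shown, Casp12, Sbno2, Shmt2, Slc7a11 and Vill held a match. The windows of Osmr and Lcn2 held none. These matches are a description of letters and no test was made.

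**Figure D2:**
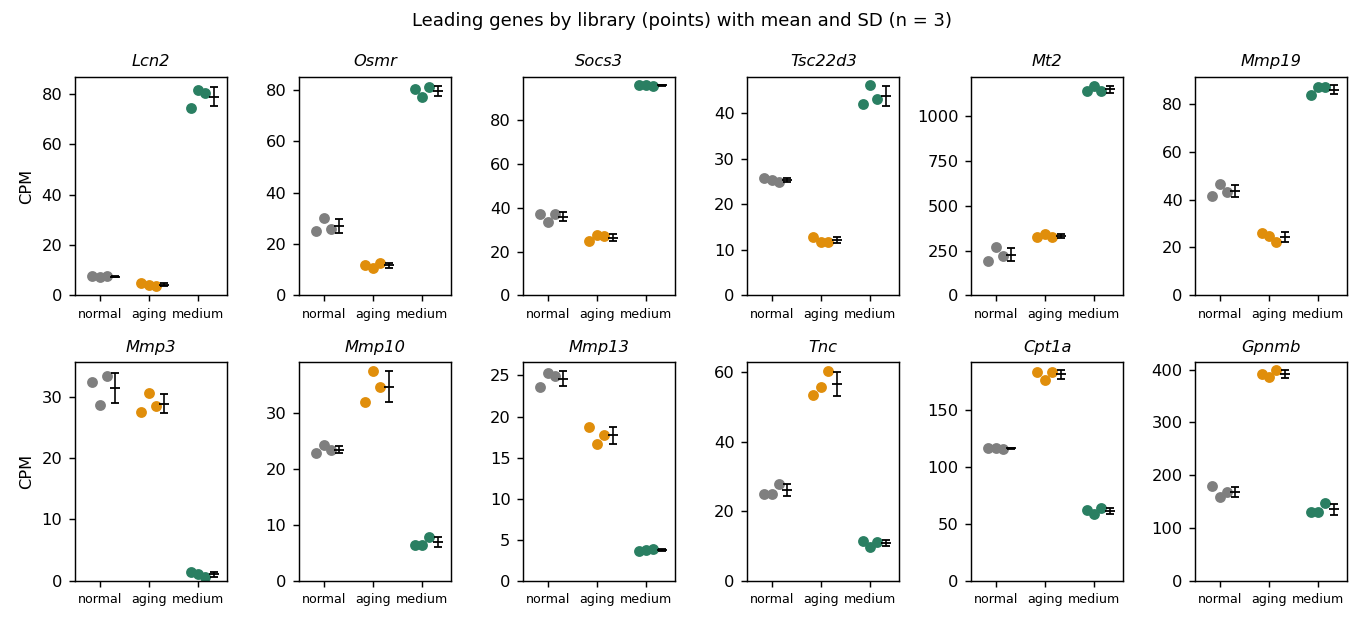
CPM of 12 genes in the 9 libraries, with a panel for each gene, points for the libraries of normal, aging and medium cultures, and a bar for the mean and SD of the 3 libraries of a group. In the upper row, from Lcn2 to Mmp19, all medium points lie above all others. In the lower row, from Mmp3 to Gpnmb, they lie below all others.

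Most targets of the glucocorticoid receptor rose, and the receptor gene Nr3c1 fell from 175 ± 6.07 CPM to 137 ± 7.03 CPM. Of the 15 well-expressed members of this list 10 were higher, 4 of them as DEGs, and 3 were lower, with a median log2 fold change of 0.37. Lcn2 and Mt2 stand on this list as well as among the acute phase genes. Tsc22d3, which encodes a mediator of the anti-inflammatory action of glucocorticoids, was at 12.8, 11.7 and 11.7 CPM in aging, at 41.9, 46.1 and 43.0 CPM in medium and at 25.7, 25.2 and 24.8 CPM in normal libraries. The groups did not overlap, and the log2 fold change was 1.86 (SE 0.0721, adjusted p = 4.39e-18 by edgeR). Per1, a clock gene with a glucocorticoid response, rose from 33.1, 37.2 and 39.2 CPM to 74.4, 76.5 and 73.7 CPM. Klf9, Sgk1 and Fkbp5, which are induced in most tissues by glucocorticoids, had log2 fold changes of 0.98, 0.89 and 0.71. Mertk, a receptor for the uptake of dying cells, fell from 50.8, 52.6 and 53.5 CPM to 19.9, 20.9 and 22 CPM, with a log2 fold change of -1.32. The hormone content of the medium was not measured in these data.

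The clock genes moved in both directions. Of 12 well-expressed members 7 were higher and 3 lower, against 33.9% and 25.4% of all well-expressed genes, so the lower ones were near the general share. Besides Per1, the repressor gene Cry1 rose from 18 ± 0.272 CPM to 31.0 ± 3.01 CPM. The nuclear receptor genes Nr1d1 and Nr1d2, repressors of Arntl, fell with log2 fold changes of -0.92 and -0.99, and Arntl itself had a log2 fold change of 0.26. Nr1d1 shares bases with Thra on the other strand. No source used here gives the time of day of harvest.

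The metallothionein genes, whose small proteins hold zinc and copper, rose. Mt2 (chromosome 8, 94172664 to 94173568, plus strand) was at 327, 345 and 326 CPM in aging, at 1140, 1170 and 1140 CPM in medium and at 195, 268 and 220 CPM in normal libraries. Its log2 fold change of 1.79 (SE 0.0589, adjusted p = 8.99e-20 by edgeR) was the largest among genes at 100 CPM or more. Mt1, its neighbour, rose from 258 ± 8.96 CPM to 422 ± 7.12 CPM. The window of Mt2 held 6 matches to the metal response letters TGCNCNC, but at least 1 match was found in 64.5% of well-expressed genes with a window. Slc39a14, an importer of zinc and iron, rose with a log2 fold change of 0.97, and Tfrc, the receptor that takes up transferrin-bound iron, fell from 682, 660 and 660 CPM to 352, 350 and 339 CPM. The ferritin heavy chain gene Fth1 had a log2 fold change of 0.50 and the light chain gene Ftl1 of -0.25. Over all 19 metal genes 11 were higher and 4 lower, and with library totals alone the counts were 6 and 5.

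By number, the amino acid response held the most upregulated DEGs of any list, but some smaller lists held larger shares. Upregulated DEGs were 6 of 26 JAK-STAT, 4 of 15 glucocorticoid, 2 of 7 acute phase and 2 of 11 tubulin genes, against 0.532% of all well-expressed genes. Both acute phase DEGs, Lcn2 and Mt2, are also among the glucocorticoid DEGs. The lists were chosen with earlier results of these data known, so these shares are a description and not a test. Of 71 well-expressed amino acid response genes 59 were higher, 8 of them as DEGs, and 5 were lower. Their median log2 fold change was 0.47. With library totals alone 52 were higher and 7 lower. Atf4, the factor of this response, rose from 337, 328 and 338 CPM in aging to 524, 570 and 542 CPM in medium libraries, and normal RGCs were at 623, 676 and 629 CPM. The order of the groups was thus aging, medium and normal, and the values of no pair of groups overlapped. The log2 fold change of Atf4 in the medium was 0.71 (SE 0.0357, adjusted p = 1.37e-15 by edgeR). Of the 13 regulators and effectors around ATF4, 12 were higher. The DEGs among them were Chac1, which encodes an enzyme that degrades glutathione, and Trib3, a pseudokinase gene induced by ATF4. Chac1 was at 8.54, 12.6 and 8.81 CPM in aging, 22.6, 24.9 and 19.8 CPM in medium and 48.9, 50.3 and 46.9 CPM in normal libraries. Trib3 was at 36.6 ± 1.74 CPM, 80.3 ± 5.80 CPM and 119 to 135 CPM in the same groups. Both genes reached less than the normal level in the medium.

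Most enzymes that make amino acids rose. Asns, which makes asparagine (chromosome 6, 7675169 to 7693254, minus strand), was at 114, 119 and 114 CPM in aging and 302, 299 and 296 CPM in medium libraries, where normal RGCs were at 296, 326 and 304 CPM. The medium values of Asns lay at the lower end of the normal values, and the log2 fold change over aging was 1.37 (SE 0.0381, adjusted p = 2.93e-21 by edgeR). Cth, which makes cysteine, rose from 8.11, 7.16 and 6.94 CPM to 26.6, 27.2 and 22.6 CPM, against 24.9 to 31.5 CPM in normal RGCs. Its log2 fold change was 1.78. Of 15 such enzymes outside the serine pathway 12 were higher and 2 lower. Ass1, which makes argininosuccinate for arginine synthesis, was the member with the largest decrease, from 20.2 ± 2.72 CPM to 12.3 ± 1.60 CPM.

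Of the 11 serine and one-carbon enzymes 8 were higher and none was lower. The mitochondrial enzymes Shmt2, Mthfd2 and Aldh1l2 had log2 fold changes of 1.07, 0.98 and 1.29, and the serine enzymes Psph, Psat1 and Phgdh of 1.28, 0.58 and 0.49. Shmt1 and Tyms, which act in the cytosol or nucleus in this cycle, had log2 fold changes of -0.01 and 0.04 and did not pass. Psph rose from 32.8, 34.5 and 33.3 CPM to 76.5, 84.0 and 83.0 CPM, and it overlaps Cct6a on the other strand, as Aldh1l2 and Shmt2 overlap other genes.

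Transporters of amino acids were split. Of 12 well-expressed members 8 were higher and 3 lower. Slc7a11, the cystine importer, rose from 100, 98.5 and 93.6 CPM to 224, 219 and 219 CPM, below the 317 to 364 CPM of normal RGCs. Slc7a5 and its partner Slc3a2, which import large neutral amino acids, had log2 fold changes of 0.78 and 0.58. Slc36a1, Slc6a6 and Slc38a2 fell, with log2 fold changes of -0.58, -0.46 and -0.29.

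Nearly all aminoacyl-tRNA synthetases, which charge tRNAs, rose by a modest amount. Of 20 members 19 were higher and none was lower, also with library totals alone, and the median log2 fold change was 0.51. None was a DEG. Nars, Gars and Lars had the largest values with log2 fold changes of 0.88, 0.85 and 0.83, and Farsa had the smallest at 0.09, which did not pass. Nars was at 398, 424 and 394 CPM in aging and 754, 757 and 725 CPM in medium libraries.

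**Figure D3:**
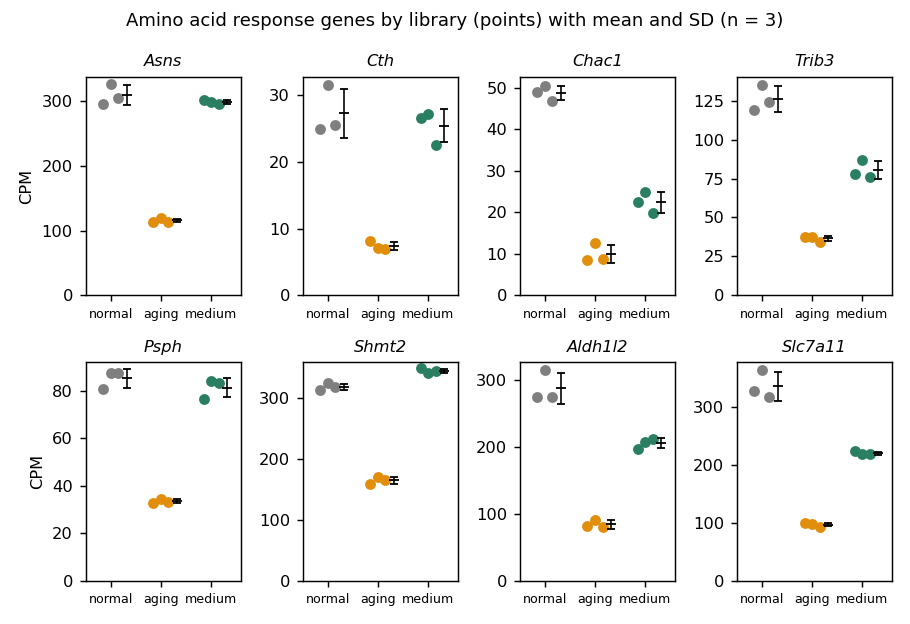
CPM of 8 amino acid response genes in the 9 libraries, with points for libraries and a bar for the mean and SD of the 3 libraries of a group. Aging points lie below all others in each panel. Medium points reach the normal range for Asns, Cth and Psph, lie above it for Shmt2 and stay below it for Chac1, Trib3, Aldh1l2 and Slc7a11.

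The letters TGATGNAA of the amino acid response element, read on either strand, were in the windows of 6 of the 32 upregulated DEGs (18.8%), against 1.96% of downregulated DEGs, 2.44% of well-expressed genes with a window and 3.97% of all windows. All 6 are shown because most of them belong to the list above, 30 bases each in the direction of the gene with the match in capitals. Pck2 encodes a mitochondrial enzyme of gluconeogenesis and Tubb3 a tubulin described below. The stretches are chr6:7693214-7693243 for Asns, chr2:119351038-119351067 for Chac1, chr14:55540152-55540181 for Pck2, chr3:50443661-50443690 for Slc7a11, chr2:152344028-152344057 for Trib3 and chr8:123411480-123411509 for Tubb3. Those of Asns and Tubb3 lie in annotated exons and that of Trib3 in part.
Asns: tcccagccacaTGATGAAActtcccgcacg
Chac1: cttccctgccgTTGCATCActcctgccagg
Pck2: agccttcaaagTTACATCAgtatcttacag
Slc7a11: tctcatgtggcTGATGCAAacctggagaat
Trib3: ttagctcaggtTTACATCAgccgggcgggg
Tubb3: gcccgcagcgcTTACATCAgccagcgaggg
Asns and Slc7a11 carry the letters on the strand of the gene and the other 4 on the opposite strand. None of these matches overlapped a match to another motif searched here.

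Most chaperones and folding enzymes of the endoplasmic reticulum rose with the amino acid genes. Of 22 well-expressed members of the unfolded protein response 19 were higher and 2 lower, with a median log2 fold change of 0.36 and no DEG. Hspa5, the main chaperone of this compartment, rose from 998, 1000 and 960 CPM to 1570, 1600 and 1560 CPM, with a log2 fold change of 0.68. Xbp1, a factor of this response, rose from 92.1 ± 2.38 CPM to 136 ± 4.44 CPM. Crebrf, a regulator of the response, fell with a log2 fold change of -0.76. Among 16 heat shock genes 10 were higher and 3 lower. Cryab, a small heat shock protein gene that overlaps Hspb2, rose from 15.4, 14 and 15.6 CPM to 43.6, 42.2 and 39.3 CPM, and Hspb1 had a log2 fold change of 0.73. Hspa1b fell with a log2 fold change of -1.01, but it was not a DEG with limma on FPKM. Counts of Hspa1b were fractional in 8 of the 9 libraries, so some of its reads may have been divided between genes.

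Most enzymes of cholesterol synthesis rose. Of 24 well-expressed members 20 were higher and 1 lower, with a median log2 fold change of 0.39 and no DEG. With library totals alone 19 were higher and 3 lower. Hmgcs1, at the entry of the pathway, was at 195, 194 and 185 CPM in aging, 313, 304 and 296 CPM in medium and 101, 104 and 104 CPM in normal libraries. The medium thus stood farther from the normal level than aging did for Hmgcs1. Pmvk, Mvk, Fdft1 and Idi1, which act at later steps, had log2 fold changes of 0.84, 0.74, 0.72 and 0.67. Insig1, which holds the pathway back, fell with a log2 fold change of -0.13, and Srebf2, the factor of the pathway, had a log2 fold change of 0.06 and did not pass. Of 13 fatty acid synthesis genes 10 were higher and none was lower, led by Acss2 at a log2 fold change of 0.72, while Fasn and Srebf1 had log2 fold changes of -0.01 and -0.07. Of 7 targets of the sterol receptor LXR 1 was lower and none higher.

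Most genes that burn or store fatty acids fell. Of 14 well-expressed targets of PPAR factors 10 were lower, 3 of them as DEGs, and 2 were higher. Cpt1a, which carries fatty acids into mitochondria for oxidation (chromosome 19, 3322334 to 3385733, plus strand), was at 184, 177 and 184 CPM in aging, 62.5, 58.4 and 63.7 CPM in medium and 116 to 117 CPM in normal libraries. The medium values of Cpt1a lay below both other groups, and the log2 fold change over aging was -1.56 (SE 0.0414, adjusted p = 1.21e-21 by edgeR). Angptl4, a secreted inhibitor of lipoprotein lipase, fell from 119, 123 and 117 CPM to 46.2, 49.0 and 44.0 CPM, and normal RGCs were at 28.9 to 51.6 CPM. Acaa2, a thiolase of fatty acid oxidation, fell from 57.7, 53 and 60 CPM to 23.1, 23.5 and 24.1 CPM. Slc25a20, Plin2 and Acadvl had log2 fold changes of -0.97, -0.93 and -0.61, and the fatty acid carrier gene Fabp5 rose by 0.70 on the log2 scale.

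**Figure D4:**
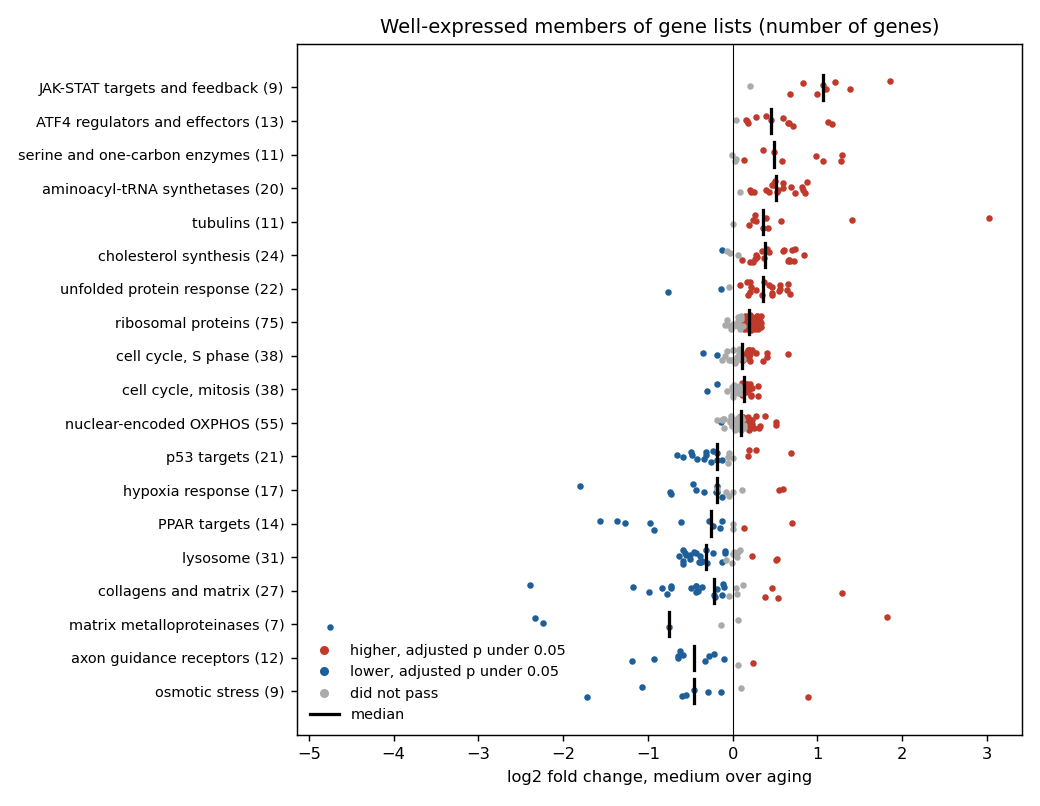
Log2 fold change, medium over aging, of the well-expressed members of 19 gene lists or parts of lists, with the number of members in brackets. Red points were higher and blue points lower at an adjusted p under 0.05, grey points did not pass, and a bar marks the median, from 1.07 for JAK-STAT targets to -0.75 for metalloproteinases.

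Most ribosomal protein genes rose by a small amount. Of 75 members 59 were higher and none was lower, with a median log2 fold change of 0.19 and a largest value of 0.34. With library totals alone 47 were higher and 1 lower, with a median of 0.11. For oxidative phosphorylation and the cell cycle the excess of higher genes shrank with library totals alone but did not turn. Their medians went from 0.09 to 0.01 and from 0.1 to 0.02. Of 68 oxidative phosphorylation genes 28 were higher and 6 lower, and 16 and 10 with library totals alone. Within them mt-Co1 had a log2 fold change of 0.44 and mt-Nd3 of -0.34, both transcribed from the mitochondrial genome. Of 91 cell cycle genes 45 were higher and 10 lower, and 23 and 20 with library totals alone. Rrm2, which encodes a subunit of ribonucleotide reductase, rose from 337, 339 and 334 CPM to 532, 537 and 515 CPM. Mki67, a marker of dividing cells, was at 861 ± 10 CPM and 947 ± 36.5 CPM, with a log2 fold change of 0.14. The cyclin-dependent kinase inhibitor gene Cdkn1a fell by 0.18 on the log2 scale, and Btg2, which restrains division, fell by 0.66.

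Of 7 well-expressed matrix metalloproteinases 4 were lower, 3 of them as DEGs, Mmp19 was higher as a DEG, and Mmp11 and Mmp14 did not pass. Mmp3, the protease stromelysin with a wide range of matrix substrates, lies on chromosome 9 from 7445822 to 7455975, plus strand. It was at 27.5, 30.6 and 28.4 CPM in aging, 1.49, 1.09 and 0.615 CPM in medium and 28.6 to 33.3 CPM in normal libraries, the largest decrease among well-expressed genes. Mmp10, a second stromelysin, fell from 31.9, 37.4 and 34.6 CPM to 6.37, 6.40 and 7.89 CPM. Mmp13, a collagenase, fell from 18.7, 16.7 and 17.7 CPM to 3.6, 3.77 and 3.84 CPM. The log2 fold changes of Mmp3, Mmp10 and Mmp13 were -4.75, -2.33 and -2.24 with standard errors of 0.145, 0.0915 and 0.105. The 3 genes lie near each other on chromosome 9. Mmp19 rose from 26.2, 24.9 and 22.1 CPM to 83.7, 87.0 and 86.9 CPM, but it overlaps Tmem198b on the other strand and its counts were fractional, so reads may have been divided between genes. Mmp2, a gelatinase, had a log2 fold change of -0.75, and Mmp14, a metalloproteinase of the cell surface, was at 142 ± 3.16 CPM and 148 ± 5.27 CPM.

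The 200 bases before the RefSeq start (GRCm38.p6) of the 3 fallen metalloproteinase genes are shown because each holds 1 match to the AP-1 letters TGANTCA, given in capitals. They are chr9:7445622-7445821 for Mmp3, chr9:7502142-7502341 for Mmp10 and chr9:7272314-7272513 for Mmp13, all on the plus strand, with matches that begin 46, 63 and 35 bases before the start. None of these bases lies in an annotated exon.
Mmp3: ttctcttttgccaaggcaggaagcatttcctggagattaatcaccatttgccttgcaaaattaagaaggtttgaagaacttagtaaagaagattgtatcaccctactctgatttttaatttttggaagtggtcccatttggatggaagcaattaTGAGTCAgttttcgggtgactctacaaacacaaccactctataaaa
Mmp10: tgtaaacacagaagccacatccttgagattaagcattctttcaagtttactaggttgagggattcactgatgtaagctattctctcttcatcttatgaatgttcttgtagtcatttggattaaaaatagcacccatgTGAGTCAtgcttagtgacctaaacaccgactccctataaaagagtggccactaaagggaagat
Mmp13: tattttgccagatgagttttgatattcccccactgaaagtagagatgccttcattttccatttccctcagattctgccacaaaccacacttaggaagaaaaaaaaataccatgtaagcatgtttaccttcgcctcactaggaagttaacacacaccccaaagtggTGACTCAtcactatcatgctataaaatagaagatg
These letters were in the windows of 8 of the 51 downregulated DEGs (15.7%), 3 of the 32 upregulated DEGs (9.38%), 6.02% of well-expressed genes with a window and 7.81% of all windows. The other 5 downregulated DEGs with a match were Atp13a4, Gpnmb, Lif, Shc4 and Tnfrsf9. The genes Junb and Jun, whose proteins bind such letters, had log2 fold changes of 0.83 and 0.22. For the C/EBP letters TTGCNNAA the shares were 21.9% of upregulated DEGs, 15.7% of downregulated DEGs and 9.51% of well-expressed genes.

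The plasminogen system changed on both sides. Plau and Plat, the urokinase and tissue activators of plasminogen, fell from 55.3 ± 1.03 CPM to 25.6 ± 1.61 CPM and from 144 ± 7.64 CPM to 78.2 ± 1.08 CPM. Serpinb2, an inhibitor of these activators, rose with a log2 fold change of 0.92. Among all 20 matrix proteases and inhibitors 12 were lower and 5 higher.

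Most structural matrix genes fell. Of 27 well-expressed collagens and matrix proteins 19 were lower and 4 higher. Tnc, which encodes tenascin-C, a matrix protein of tissue repair, was at 53.4, 55.9 and 60.3 CPM in aging, 11.5, 9.78 and 11.3 CPM in medium and 25 to 28 CPM in normal libraries. The log2 fold change was -2.39 (SE 0.0769, adjusted p = 5.8e-20 by edgeR). Thbs2 and Thbs1, the thrombospondins, had log2 fold changes of -1.17 and -0.99, and Spp1, Col3a1 and Fn1, for osteopontin, a fibrillar collagen and fibronectin, of -0.73, -0.73 and -0.49. Vcan, the large proteoglycan versican, rose from 107, 108 and 110 CPM to 270, 262 and 265 CPM, 1 of the 4 members that were higher. Of 14 laminins and integrins 7 were lower and 2 higher. The 5 integrins that were lower fell by 0.13 to 0.40 on the log2 scale, and Itga5, a fibronectin receptor subunit, rose by 0.52.

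Of 12 well-expressed receptors for axon guidance cues 10 were lower and 1 higher, with a median log2 fold change of -0.46. Ephb3, an ephrin receptor, fell by 1.19 and the semaphorin receptor genes Plxna3, Plxna2 and Plxnd1 by 0.93, 0.65 and 0.64 on the log2 scale. Among the ligands Sema3f was at 24.3, 21.3 and 23.1 CPM in aging and 9.14, 8.73 and 8.66 CPM in medium libraries, and Sema5a and Ntn1 fell by 1.18 and 0.83 on the log2 scale. Of 12 ligands 5 were lower, 2 higher and 5 did not pass.

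Hypoxia, lysosome and p53 genes were lower more often than higher. Of 17 hypoxia response genes 10 were lower and 2 higher. Epas1, for the hypoxia-inducible factor HIF-2 alpha, fell from 46.9, 48.6 and 45.2 CPM to 13.3, 13.7 and 13.5 CPM, with a log2 fold change of -1.80. Hif1a, for its relative, rose from 265 ± 7.04 CPM to 387 ± 10.6 CPM. Kdm3a and Egln3, targets of these factors, fell by 0.74 and 0.73 on the log2 scale, and Vegfa had a log2 fold change of -0.08 and did not pass. Of 31 lysosome genes 21 were lower and 3 higher, with a median log2 fold change of -0.31. Neu1, Tpp1 and Hexa, for hydrolases of the lysosome, fell by 0.63, 0.59 and 0.58 on the log2 scale. Glb1, which encodes the beta-galactosidase of lysosomes, fell from 59.4 ± 4.29 CPM to 43.4 ± 0.914 CPM, and Tfeb, a factor for lysosome genes, rose by 0.52 on the log2 scale. Gpnmb, a membrane glycoprotein gene of lysosomes and melanosomes, had the largest loss in FPKM of all DEGs, from 391, 386 and 400 CPM to 130, 130 and 148 CPM, and normal RGCs were at 159 to 179 CPM.

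Of 21 p53 target genes 13 were lower and 4 higher, with a median log2 fold change of -0.18 and no DEG. Ccng1, for cyclin G1, was at 551 ± 6.77 CPM in aging and 393 ± 6.46 CPM in medium libraries, and normal RGCs were at 218 to 230 CPM. Bax fell by 0.42 on the log2 scale, and Trp53 itself by 0.23. Pmaip1, for the pro-apoptotic protein Noxa, rose from 11.3 ± 1.25 CPM to 18.2 ± 1.44 CPM. The 16 senescence-associated genes divided into 7 higher and 7 lower. The lower ones were Mmp3, Mmp13, Plau, Plat, Areg, Fn1 and Glb1. Among the higher ones were Timp1 and Cxcl1, which senescent cells are known to secrete, and Hmgb1 and Lmnb1, nuclear protein genes that senescent cells lose, at log2 fold changes of 0.49 and 0.24. In the BCL2 family and apoptosis list 9 of 29 were higher and 10 lower. The caspase gene Casp12 rose from 18.5 ± 1.68 CPM to 42.2 ± 3.55 CPM, and Bok, a member of the BCL2 family, fell by 0.66 on the log2 scale.

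Most osmolyte and water transport genes fell. Of 9 well-expressed members 7 were lower, 2 of them as DEGs, and Sgk1 was higher. Aqp1, a water channel gene, fell from 26.2, 23.1 and 27.3 CPM to 8.58, 7.29 and 7.48 CPM. Slc5a3, the inositol importer induced by high salt or sugar, fell from 156 ± 4.45 CPM to 74.1 ± 7.35 CPM, and Nfat5, the factor of that response, fell by 0.55 on the log2 scale. The values of normal RGCs were 13.4 to 20.4 CPM for Aqp1 and 120 to 165 CPM for Slc5a3. Of 11 galactose genes 5 were higher and 4 lower. Sord, which oxidises sugar alcohols, fell by 0.77 on the log2 scale and Akr1b3, the aldose reductase gene, had a log2 fold change of 0.10 and did not pass (adjusted p = 0.338 by edgeR).

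Inflammatory and growth lists were mixed. Of 23 NF-kB genes 7 were higher and 6 lower, and 5 and 10 with library totals alone. Vcam1, an adhesion molecule for leukocytes, fell from 52.0, 55.4 and 55.7 CPM to 19.6, 20.3 and 22.4 CPM, while Csf3, for the granulocyte growth factor, rose from 12.3, 10.9 and 13.0 CPM to 24.5, 29.8 and 25.4 CPM. Of 3 well-expressed chemokines 1 was lower and 1 higher, and Cx3cl1, a chemokine bound to the cell surface, fell from 109 ± 3.42 CPM to 39.8 ± 1.09 CPM. Of 13 interferon response genes 6 were higher and 3 lower, and of 13 MHC class I genes 2 and 3. Of 42 ERK response genes 13 were higher and 14 lower, with Btc, for the growth factor betacellulin, at a log2 fold change of -1.57. Of 29 NRF2 and antioxidant genes 11 were higher and 8 lower, and 9 and 11 with library totals alone. Gclc, which makes the precursor of glutathione, rose by 0.77 on the log2 scale, and the detoxifying enzyme genes Aox1, Ephx1 and Gstm1 fell by 0.97, 0.94 and 0.92.

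The lists that remain had few changes or changes in both directions. Of 21 glycolysis genes 5 were higher and 7 lower, and 3 and 14 with library totals alone, and Pfkfb3, a regulator of the pathway, rose by 0.64 on the log2 scale. Of 21 TGF-beta and BMP genes 5 were higher and 10 lower, with Ccn2 rising by 1.22 and Id2 falling by 0.88 on the log2 scale. Of 26 actin and YAP genes 13 were higher and 5 lower, and 9 and 9 with library totals alone. Of 7 Wnt pathway genes 3 were lower and none higher. Of 14 growth factors and receptors 4 were higher and 5 lower, with Met rising by 0.67 and Fgf1 falling by 1.28 on the log2 scale.

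Most tubulin genes rose. Of 11 well-expressed members 10 were higher and none was lower, while with library totals alone 10 were higher and 1 lower. Tubb3, the tubulin that marks neurons, was at 3.14, 2.37 and 2.28 CPM in aging, 21.2, 22.2 and 20.1 CPM in medium and 4.42 to 4.51 CPM in normal libraries. Tubb2b rose from 12.7, 17.8 and 15.3 CPM to 37.3, 42.7 and 42.0 CPM, with fractional counts that near-identical tubulin genes can produce. The other ganglion cell markers that were well expressed did not rise. Nefl, for the light neurofilament, fell from 36.6, 41.5 and 37.2 CPM to 16.1, 18.2 and 17.5 CPM. Its counts were fractional in all 9 libraries and it overlaps Nefm on the other strand, so reads may have been divided between genes. Map2 fell by 0.47 on the log2 scale, and Rbpms and Isl1 had log2 fold changes of -0.05 and 0.13 and did not pass. In bulk RNA, fewer cells of a type and less RNA per cell cannot be told apart. Summed over the 18 ganglion cell markers, the level was 47.52 to 51.15 FPKM in aging and 47.32 to 52.07 FPKM in medium libraries. The 17 macrophage markers summed to 46.34 to 50.27 FPKM and 32.86 to 53.44 FPKM, the 19 epithelial markers to 651.41 to 670.14 FPKM and 691.24 to 717.62 FPKM, and the 19 mesenchymal markers to 1204.07 to 1243.63 FPKM and 1069.48 to 1105.85 FPKM in the same groups. The 11 glial markers summed to 955.3 to 980.73 FPKM and 886.1 to 944.2 FPKM, nearly all of it Vim, and the 14 photoreceptor markers to 1.7 to 2.04 FPKM and 0.86 to 1.44 FPKM. The 8 endothelial markers summed to 2.45 to 3.33 FPKM in aging and 0.66 to 1.67 FPKM in medium libraries. Cdh5, the endothelial cadherin gene, was at 1.8, 2.58 and 1.87 FPKM in aging and 0.37, 1.42 and 0.32 FPKM in medium libraries, most of the sum in aging. The epithelial, mesenchymal, glial, photoreceptor and endothelial sums did not overlap between the groups, while the ganglion cell and macrophage sums did. Among single well-expressed genes, values did not overlap for 37.7% with the medium higher and for 27.9% with the medium lower. The epithelial sum hid opposite changes, as 2 of its 5 well-expressed members were higher and 2 lower. Krt8 was at 285.1 to 295.69 FPKM in aging and 341.35 to 360.81 FPKM in medium libraries, while Ocln had a log2 fold change of -1.07. No endothelial or photoreceptor marker was well expressed. Pecam1 did not exceed 0.54 FPKM in any library and Cldn5 was listed at 0. Their part in the results above was not tested.

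Further genes among the 15 largest changes or the 5 largest FPKM differences in each direction belong to none of the themes above. Krt20, a keratin gene, rose from 3.69 ± 0.461 CPM to 17.3 ± 0.879 CPM. Adam8, a protease of the cell surface that overlaps an antisense gene, rose from 19.3 ± 1.13 CPM to 78.9 ± 3.66 CPM. Klra4, Anxa8 and Cd24a had log2 fold changes of 1.81, 1.77 and 1.44. Ly6a and Ly6c1, which belong to a family of similar genes, rose by 1.24 and 1.07 on the log2 scale. Counts of Ly6c1 were fractional in 6 of the 9 libraries, so some of its reads may have been divided between genes, while those of Ly6a and Klra4 were whole in all 9. Among the genes that fell, Neurl3 and Tnfrsf9, a receptor of the tumour necrosis factor family, went from 51.5 ± 3.82 CPM to 10.6 ± 1.11 CPM and from 46.4 ± 0.319 CPM to 12.4 ± 0.798 CPM. Pde1b, Fer1l6, Piezo2, Ccn3 and Apln had log2 fold changes of -1.82, -1.74, -1.72, -1.63 and -1.62. Glt8d2 fell from 32.4 ± 3.02 CPM to 6.67 ± 0.875 CPM and shares bases with Tdg on the other strand. Galnt2l, a locus that runs through Galnt2 and Usp10, was at 26.0, 11.8 and 24.6 CPM in aging and 6.01, 1.64 and 9.22 CPM in medium libraries. Its adjusted p of 0.00267 by edgeR became 0.329 with DESeq2, and 1 normal library had 0 CPM, so its value is uncertain.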

How the data were processed

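Per the labels, RNA was purified with Trizol, enriched for mRNA by oligo(dT) and placed on mm10. Per gene, the authors deposited expected counts for each library (estimated reads, not normalized) and FPKM, scaled by length and depth. No source used here names the aligner or counter. In each library between 6.92% and 7.38% of the 22322 genes had a count that was not whole, and these counts were rounded. Genes were tested with edgeR 4.0.16 in R 4.3.3 (filterByExpr, TMM, all 9 libraries, 1 mean per group, 6 residual degrees of freedom, quasi-likelihood F test, Benjamini-Hochberg adjustment over 12145 genes), a script tested on simulated data. The common biological coefficient of variation was 3.78%. Same-numbered aging and medium libraries had deviations with correlations from -0.064 to 0.024 and were not treated as pairs.

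Gene coordinates and overlaps came from GENCODE M21 (GRCm38, the same assembly as mm10), in which 22267 identifiers matched, and promoters from RefSeq. Named genes were the 15 largest DEGs in each direction among well-expressed genes without overlap, 5 in each direction by FPKM difference, up to 4 per list that passed plus any DEG, and key genes that a sentence needed. The 33 lists and the members were chosen with earlier results of these data known, and the motifs, other examples from the lists and the genes with printed promoters after their values were seen. Together with the cell type markers, the lists held 1334 genes of the table, of which 885 were well expressed. Strand use in counting is not stated, so genes that overlap on opposite strands cannot be told apart. Alternatives were DESeq2 1.42.0, library totals alone, upper-quartile factors, no low-count filter, only the 6 libraries compared, a replicate block, limma 3.58.1 on log2(FPKM + 1), mean CPM limits of 5 and 20, a fold change of 1.5, and each library left out in turn. Some genes are not reported here.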

Additional observations from a re-analysis of the deposited data

How the results depend on the processing

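Of the 47 upregulated and 72 downregulated DEGs among well-expressed genes, counts moved most with the fold limit and the level limit. With a fold change of 1.5 there were 237 and 301. With a mean CPM of at least 5, 120 genes were downregulated DEGs, and with at least 20, 33. Limma on log2(FPKM + 1) gave 46 downregulated DEGs and 1867 genes higher at an adjusted p under 0.05. With a library left out, upregulated DEGs were 46 to 51, downregulated DEGs 67 to 76, higher genes 2755 to 2884 and lower genes 1982 to 2113. The replicate numbers do not pair the libraries, and with the replicate block the counts were 47, 72, 2995 and 2253. Of 902 list and named genes, library totals alone kept the direction and call of 743, took 90 below the threshold, brought 65 past it and reversed 4. Reversed log2 fold changes, all near 0 in the reported fit, were -0.071 for Tpi1, -0.001 for Pgk1, -0.013 for mt-Atp6 and -0.07 for Actn4 with library totals alone. With limma they were -0.026 for Anln, -0.001 for Pgk1, -0.012 for mt-Atp6 and -0.07 for Actn4. With DESeq2 870 genes kept direction and call and 27 went below the threshold. The cause was not tested. With 3 wells in each group and 1 culture source, other cultures may differ by more than these values show, and low genes carry wider errors.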
